A study of Mus musculus with 6 samples.

Results

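The integrated stress response was followed through 10 genes, Atf4 and 9 genes that are known as its targets or outputs, out of the 55536 genes of the count table. The members were named as a list (Atf4, Ddit3, Trib3, Asns, Chac1, Nupr1, Sesn2, Psat1, Phgdh and Fgf21) and matched to the table by gene symbol; all 10 were found. The list was chosen by the comparison of knockout with control counts that is described here, so the members' differences between genotypes are given as a description, without a test. Polyadenylated RNA of isolated mouse pancreatic islets was sequenced in 3 control libraries (genotype Klf4+/+;Gcg-iCre) and 3 knockout libraries (genotype Klf4fl/fl;Gcg-iCre), from C57B1/6J mice in the spelling of the series. Every library carries Gcg-iCre, a Cre recombinase driven by the glucagon gene and therefore active in alpha cells, and the knockout libraries also carry 2 floxed alleles of the transcription factor gene Klf4. No other treatment, age or sex is recorded, and the labels do not say whether each library is 1 animal or a pool, so the spread between libraries may be partly technical.

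The integrated stress response starts when a kinase phosphorylates the translation initiation factor eIF2. Each of these kinases senses its own stress, such as amino acid shortage, unfolded protein in the endoplasmic reticulum, double-stranded RNA or haem deficiency. Most protein synthesis then slows, while translation of the Atf4 mRNA rises because of short upstream reading frames, so that ATF4 protein can increase without any increase of its mRNA. ATF4 is a bZIP transcription factor that binds composite C/EBP-ATF response elements and activates genes of amino acid supply, redox balance and, under strong stress, cell death. Beta cells, with their heavy load of insulin synthesis, are known to depend on this pathway.

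Totals ran from 101277200 to 110243918 counts per library. Klf4 itself spanned 2015 to 3148 normalized counts (counts divided by a size factor for each library) in the controls and 2277 to 2540 in the knockouts, so the whole-islet count of the targeted gene did not separate the genotypes. Xist, the RNA that coats the inactive X chromosome, had a mean of 95241 ± 15566 (SD) normalized counts in the controls and 22.9 ± 9.32 in the knockouts, whereas the Y-linked Ddx3y was at 0 counts in every control and at a mean of 5837 in the knockouts. Genotype and sex therefore cannot be told apart for any value below. Markers of beta cells, which make insulin, took 18.5% to 20.5% of all counts over the 6 libraries, as a check of the labelled tissue. Because whole islets were measured, fewer cells of a type and less RNA per cell cannot be told apart.

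The promoters of 4 members held, before the start site, the 9 letters that define the C/EBP-ATF response element, and they are shown because this element is the known docking site of ATF4. The RefSeq promoter windows (GRCm38.p6, 250 bases before to 50 after the start) were available for all 10 members and were searched on both strands for TGATGNAAN, where N is any base. The stretches read 5′ to 3′ on the strand of the gene, with the match in capitals; a match on the opposite strand reads as its reverse complement. Positions are counted from the RefSeq start, with the base just before it as -1.
Nupr1, chr7:126625563-126625591, minus strand, match at -111 to -103: aaagggccagATTGCATCAgacagggctt
Fgf21, chr7:45615592-45615660, minus strand, match at -140 to -132: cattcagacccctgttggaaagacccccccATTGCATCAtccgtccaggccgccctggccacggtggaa
Chac1, chr2:119351018-119351086, plus strand, match at -194 to -186: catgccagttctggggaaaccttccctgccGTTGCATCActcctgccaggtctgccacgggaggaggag
Asns, chr6:7693214-7693242, minus strand, match at -23 to -15: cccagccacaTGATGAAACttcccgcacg

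Nupr1 and Fgf21 carried the identical 9 bases, and Chac1 differed from them in the first base shown. A match in Trib3 lay after the start, at positions 14 to 22 (chr2:152344039-152344047, minus strand), and read TTTACATCA. The stretches of Nupr1 and Asns are short because GENCODE M21 annotates an exon of a transcript with an earlier start there. Of the 10 members, 5 held a match in any of their 11 windows, against 3.95% of 32851 single promoter windows of the same length. The members are known genes of this pathway, so an excess over all windows may follow from the choice and carries no weight. No match was found in this window for Atf4, Ddit3, Sesn2, Psat1 or Phgdh. A motif of the KLF type, GGGNGTGG, was searched in the same way: it was found in Asns (positions -58 to -51) and in Ddit3 (positions -153 to -146), 2 of 10 members against 17.6% of all windows, and it did not overlap a match of the other motif. These matches describe letters only; binding was not measured.

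Levels of different genes were compared per length, as TPM, which scales the counts by the merged exon length of each gene and by the library. Atf4 was by far the most abundant member, at 217 to 223 TPM in the controls and 200.1 to 237 in the knockouts. In the order of control means it was followed by Asns at 63.6, Sesn2 at 40.4, Nupr1 at 26.1, Ddit3 at 18.0, Chac1 at 17.3, Phgdh at 12.4, Psat1 at 5.09 and Trib3 at 2.95 TPM. Fgf21 was last, at 0.290. Among neighbours in this order, the control ranges of Ddit3 and Chac1 overlapped, as did those of Chac1 and Phgdh; Chac1 alone ran from 9.50 to 25.0. In the order of knockout means Nupr1 came after Atf4 and Asns and ahead of Sesn2, at 54.9 to 68.6 TPM against 39.8 to 44.5 for Sesn2. The value of Nupr1 depends on a merged exon length of 2514 bases, which includes a long exon, so its place in the order is approximate.

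**Figure D1:**
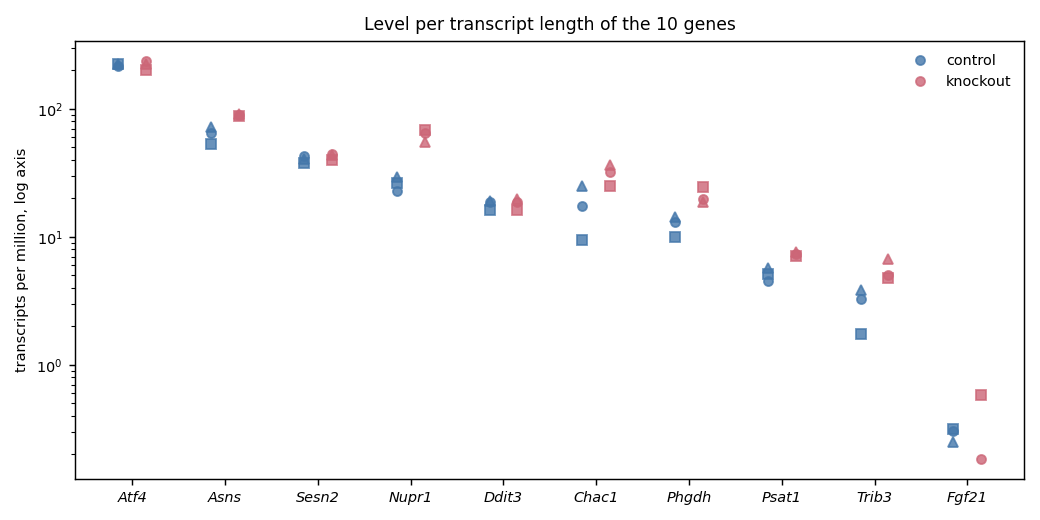
TPM (log axis) of the 10 genes, ordered by their control mean, with 1 point per library (circle, square and triangle for replicates 1, 2 and 3; blue, control; red, knockout). Atf4 lies highest at 200.1 to 237, and Fgf21 lowest; its knockout replicate 3, at 0 counts, cannot be drawn on a log axis.

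The transcription factors Atf4 and Ddit3 did not separate the genotypes. Atf4 (ENSMUSG00000042406, chromosome 15, 80255184 to 80257541, plus strand, GRCm38) had 20960, 23479 and 23355 normalized counts in the controls, in the order of replicates 1, 2 and 3 used throughout. The knockouts had 24141, 21004 and 22306. The groups overlapped throughout, with the highest and the second lowest value both in knockout libraries. Its log2 fold change was -0.01 ± 0.08 (SE, n = 3 per group). Ddit3 (chromosome 10, 127290774 to 127296288, plus strand) encodes CHOP, the transcription factor through which prolonged stress can lead to cell death. It was at 1312, 1256 and 1435 normalized counts in the controls and at 1379, 1230 and 1439 in the knockouts, with the lowest and the highest value in knockout libraries and a log2 fold change of 0.02 ± 0.11 (SE). Exons of Ddit3 overlap the methionyl-tRNA synthetase gene Mars on the opposite strand by 68 bases and the non-coding gene Gm4189 by 13, and since the strand setting of the counting is not given in the sources used here, the counts of Ddit3 and Mars are uncertain. A second annotated identifier named Ddit3, which lies inside the first, had 0 counts in all libraries.

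Nupr1 (ENSMUSG00000030717, chromosome 7, 126623249 to 126630861, minus strand) encodes a small chromatin-associated protein that is induced by many cell stresses, and it is also known as p8 from its induction in acinar cells during pancreatitis. The controls held 2355, 2970 and 3252 normalized counts, and the knockouts 7017, 7673 and 5857. Every knockout library lay above every control library, and the lowest knockout value was far above the highest control. The means were 2859 ± 459 and 6849 ± 920 (SD, n = 3 each). On the log2 scale the difference was 1.26 ± 0.13 (SE), the highest of the 10 members.

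Trib3 and Chac1 followed a common pattern over the libraries. Trib3 (chromosome 2, 152337422 to 152344032, minus strand), a pseudokinase that binds ATF4 and dampens its activity, was at 286, 165 and 363 normalized counts in the controls and at 460.0, 450 and 605 in the knockouts. All 3 knockout values were above the controls, and the log2 fold change was 0.90 ± 0.26 (SE). Chac1 (chromosome 2, 119351229 to 119354381, plus strand), an enzyme that degrades glutathione, was at 1164, 699 and 1818 normalized counts in the controls and at 2275, 1813 and 2502 in the knockouts. Its groups overlapped by a narrow margin between control replicate 3 and knockout replicate 2, and the log2 fold change was 0.84 ± 0.40 (SE). In both genes control replicate 2 was the lowest and control replicate 3 the highest of the controls, and the controls alone differed by more than 2-fold.

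The 3 enzymes of amino acid synthesis were all higher in the knockout libraries. Phgdh (chromosome 3, 98313170 to 98339990, minus strand) catalyses the first step of serine synthesis from a glycolytic intermediate. It was at 1331, 1111 and 1581 normalized counts in the controls and at 2117, 2717 and 1956 in the knockouts, a log2 fold change of 0.76 ± 0.15 (SE). Psat1 (chromosome 19, 15904678 to 15947337, minus strand), the aminotransferase of the next step, was at 788, 974 and 1067 in the controls and at 1354, 1345 and 1368 in the knockouts. The 3 knockout values of Psat1 were nearly equal, and the log2 fold change was 0.52 ± 0.13 (SE). Asns (chromosome 6, 7675169 to 7693254, minus strand) makes asparagine from aspartate. It was at 7307, 6542 and 8790 normalized counts in the controls and at 10522, 10621 and 10522 in the knockouts, a log2 fold change of 0.48 ± 0.11 (SE). For each of the 3 genes the groups did not overlap.

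Sesn2 and Fgf21 did not separate the genotypes. Sesn2 (chromosome 4, 132492032 to 132510501, minus strand), a stress-inducible inhibitor of mTORC1 that senses leucine, was at 6069, 5914 and 6278 normalized counts in the controls and at 6675, 6153 and 6429 in the knockouts. Knockout replicate 2 fell between the controls, and the log2 fold change was 0.08 ± 0.07 (SE). Fgf21 (chromosome 7, 45613886 to 45615490, minus strand), a secreted metabolic hormone made in liver and in pancreatic acinar cells, was near the limit of detection. It had 12, 14 and 10 counts in the controls and 8, 24 and 0 in the knockouts; a count of 0 in knockout replicate 3 allows a level of up to 0.0292 CPM, counts relative to the total of the library. At this depth no difference in Fgf21 was detectable, and the fit gave it no adjusted p-value.

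**Figure D2:**
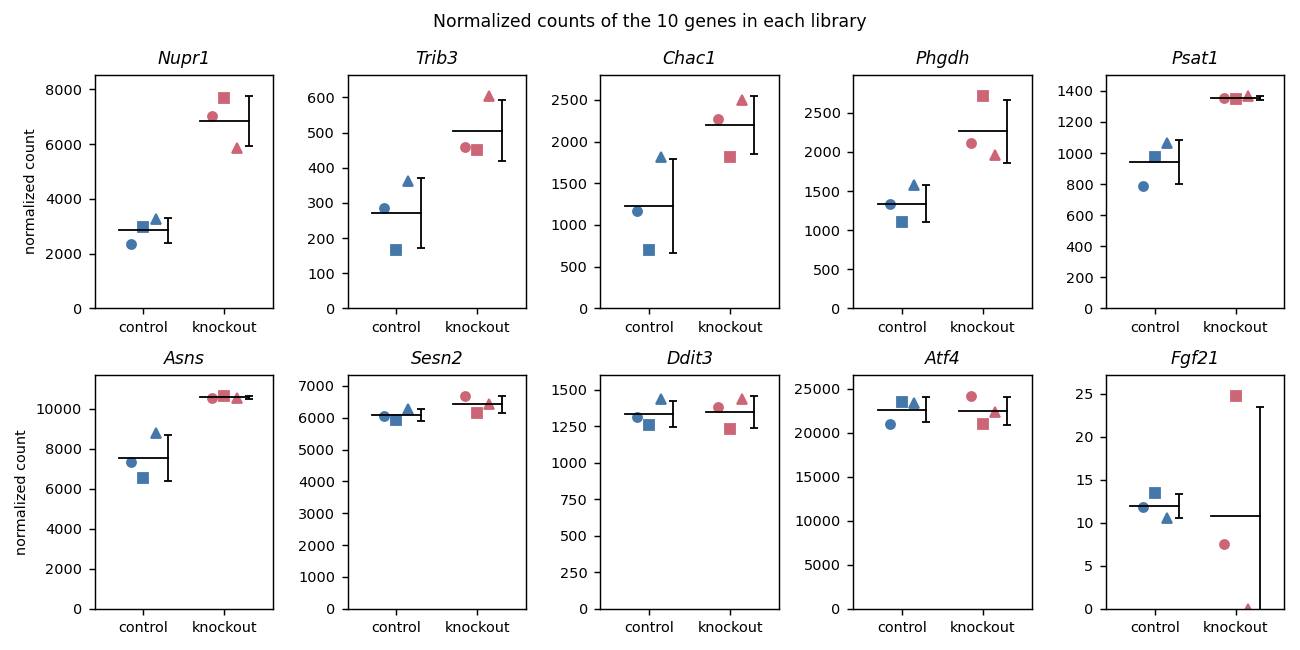
Normalized counts of each of the 10 genes, 1 point per library (circle, square and triangle for replicates 1, 2 and 3), with the group mean as a line and its SD as a bar (n = 3 each); every axis starts at 0. Nupr1, Trib3, Phgdh, Psat1 and Asns have all knockout points above all control points, and Atf4, Ddit3, Sesn2, Chac1 and Fgf21 do not.

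Read as calls, 5 of the 10 members (Nupr1, Trib3, Phgdh, Psat1 and Asns) had a DESeq2 adjusted p under 0.05, all of them higher in the knockout libraries. Of all 17797 genes given an adjusted p-value, 2.19% passed in either direction and 1.53% passed as higher. The same 5 members had every knockout library above every control, as did 9.06% of all tested genes. These counts describe how the list was made and carry no further weight. The median log2 fold change of all 10 members was 0.50, and that of all tested genes -0.01. With edgeR's quasi-likelihood test 1 member passed, Nupr1, where 0.115% of 25210 genes passed. Single libraries moved the count. Without control replicate 3, when Chac1 joined the others, 6 members and 6.28% of all tested genes passed. Without knockout replicate 1 or 3 the members were 3 (Nupr1, Phgdh and Asns), and 0.88% or 1.49% of all tested genes passed.

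The controls were not alike for these genes. Control replicate 3 was the highest control for 8 of the 10 members, all but Atf4 and Fgf21, and for 39.3% of all tested genes. Control replicate 2 was the lowest control for 6 of the 10, Ddit3, Trib3, Asns, Chac1, Sesn2 and Phgdh, and for 32.8% of all tested genes. Without control replicate 3 the log2 fold change of Chac1 was 1.24 and that of Trib3 1.16. Without control replicate 2 they were 0.56 and 0.64. Nupr1 moved little, from 1.14 to 1.36 over the fits that left out 1 library, and Asns ranged from 0.39 to 0.61.

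The rest of the pathway was followed in 93 further genes in 7 lists, written from textbook knowledge with earlier results of these data known. Of these, 11 passed in DESeq2 at an adjusted p under 0.05, which is 11.8% of the 93 against 2.19% of all tested genes. All 11 were higher in the knockout libraries. They were 4 enzymes of amino acid synthesis and one-carbon metabolism, 1 amino acid transporter, 4 genes of tRNA charging and 2 of the other stress outputs. The lists of eIF2 kinases, bZIP partners of ATF4 and endoplasmic reticulum chaperones gave none in this fit, with genotype as the only term, but each gave calls in at least 1 alternative fit. The count was 2 without knockout replicate 1 (Cars and Mthfd2) and 3 without knockout replicate 2. It was 6 without control replicate 2 and 24 without control replicate 3. In these fits, in the same order, 0.88%, 2.25%, 1.56% and 6.28% of all tested genes passed. In edgeR 1 of the 93 passed, Cars, and 0.115% of 25210 genes. When each of the 6 libraries was left out in turn, Cars and Mthfd2 passed in 6 of 6 fits, Pck2 in 5, Yars in 4, Gpt2 in 3 and Ddit4 in 2. Slc7a5, Shmt2, Aars, Mars and Eif4ebp1 passed in 1 of the 6, the fit without control replicate 3.

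Upstream of Atf4, none of the 15 genes for eIF2 kinases and eIF2 regulators passed in DESeq2 or edgeR. An unadjusted p under 0.05 in DESeq2 was reached by 2 of them, 1 in each direction. Over all 17797 tested genes, 1159 were higher and 895 lower at that threshold. The haem-sensing kinase gene Eif2ak1 had a log2 fold change of -0.04 ± 0.08 (SE), the double-stranded RNA sensor Eif2ak2 of -0.05 ± 0.08, and the endoplasmic reticulum kinase Eif2ak3 (PERK) of -0.01 ± 0.10. The amino acid sensor Eif2ak4 (GCN2) had the largest value of the list, 0.20 ± 0.09 (DESeq2 adjusted p = 0.319). Its counts were 2877, 2469 and 2841 in the controls and 3223, 3128 and 3065 in the knockouts. Every knockout was thus above every control, as for 9.06% of all tested genes. Eif2s1, an eIF2 gene named after its value was seen, was at -0.18 ± 0.08 (adjusted p in DESeq2 = 0.376). Its knockouts all lay below its controls, as for 1464 of 17797 tested genes. Ppp1r15a, the phosphatase subunit GADD34 that ends the response, was level at 0.01 ± 0.08. Without control replicate 3, 1 gene of the list passed: Impact, an inhibitor of GCN2, was at -0.23 on the log2 scale. Kinase activity is set after translation and was not measured.

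Among 7 bZIP partners of ATF4 none passed in DESeq2 or edgeR. At an unadjusted p under 0.05 in DESeq2, 1159 of 17797 tested genes were higher and 895 lower, and of these 7 genes 1 was higher. That gene was Atf5, which is translated under the same control as Atf4. It was at 19981, 14822 and 24942 normalized counts in the controls and at 26102, 29072 and 24898 in the knockouts, higher by 0.42 ± 0.15 on the log2 scale (SE, adjusted p in DESeq2 = 0.116). Control replicate 3 again lay above the lowest knockout, and without it Atf5 passed, at 0.62. Without control replicate 2 the bZIP gene Cebpd passed, at -0.39. Atf3, an early stress factor, had a log2 fold change of 0.07 ± 0.38 with values from 79.6 to 211 in the controls and 91.8 to 205 in the knockouts.

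Of 14 further enzymes of amino acid synthesis and one-carbon metabolism, 4 rose in DESeq2 and none fell. Mthfd2, a mitochondrial folate enzyme, was at 3752, 3290 and 4523 normalized counts in the controls and at 5690, 6042 and 5249 in the knockouts, a rise of 0.55 ± 0.12 on the log2 scale (SE, adjusted p in DESeq2 = 0.000578). Shmt2, which feeds serine into that folate pathway, rose by 0.40 ± 0.10 (adjusted p = 0.00786), the alanine aminotransferase Gpt2 by 0.45 ± 0.12 (adjusted p = 0.0131) and the mitochondrial phosphoenolpyruvate carboxykinase Pck2 by 0.30 ± 0.07 (adjusted p = 0.00538). The median of the list was 0.25 and 12 of its 14 genes were positive. Psph, the last enzyme of serine synthesis after Phgdh and Psat1 and chosen here after its value was seen, was at 0.32 ± 0.18 (adjusted p = 0.534). Cth, also chosen after its values were seen, had the largest value of the list, 1.69 ± 0.53 (adjusted p = 0.062). Its counts were 28.8 to 44.6 in the controls and 232, 74.3 and 49.9 in the knockouts, with replicate 1 far above the other knockout libraries.

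Of 10 amino acid transporters, 1 rose in DESeq2 and none fell. Slc7a5, the light chain of a large neutral amino acid exchanger, rose by 0.40 ± 0.10 on the log2 scale (SE, DESeq2 adjusted p = 0.00739). The glycine transporter gene Slc6a9 was at 605, 757 and 530 normalized counts in the controls and at 956, 992 and 770 in the knockouts, with a log2 fold change of 0.52 ± 0.16 that did not pass (adjusted p = 0.0594). Of 13 genes of tRNA charging and export, 4 rose and none fell. These were the synthetase genes Cars (0.43 ± 0.08, adjusted p = 1.95e-05), Mars (0.41 ± 0.11, adjusted p = 0.0208), Aars (0.36 ± 0.09, adjusted p = 0.012) and Yars (0.28 ± 0.07, adjusted p = 0.0133). Cars, for cysteine, was at 4478, 4020 and 4257 normalized counts in the controls and at 5548, 6010 and 5636 in the knockouts, well apart, and had an edgeR adjusted p of 0.0496.

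Among 18 other stress outputs, 2 rose in DESeq2 and none fell. Ddit4, an inhibitor of mTORC1 that glucocorticoids and hypoxia also induce, rose by 0.64 ± 0.17 on the log2 scale (SE, DESeq2 adjusted p = 0.012); it passed in 2 of the 6 fits that left out a library, and it did not pass with total-count scaling, without the filter on low counts or in edgeR. Eif4ebp1, a repressor of cap-dependent translation, rose by 0.47 ± 0.14 (adjusted p = 0.049). The 16 genes of endoplasmic reticulum chaperones and of the ATF6 and XBP1 branches respond to unfolded protein in parallel to PERK. They gave no call in edgeR or in DESeq2 with genotype as the only term. Of these genes 4 had an unadjusted p under 0.05 in DESeq2, 1 higher and 3 lower. Of all 17797 tested genes, 1159 were higher and 895 lower at that threshold. Hspa5, the chaperone BiP, was at -0.28 ± 0.13 on the log2 scale (adjusted p = 0.325) and Dnajb9 at -0.37 ± 0.13 (adjusted p = 0.126). The median of these 16 genes was -0.10, and control replicate 3 was the highest control for all 16. Without that library 6.28% of all tested genes passed, and 4 genes of the chaperone list did, all higher in the knockouts. These were Sdf2l1 at 0.54, Creld2 at 0.35, Sel1l at 0.32 and Pdia6 at 0.23 on the log2 scale. Without control replicate 1, Dnajb9 passed as lower, at -0.48. Calls in this list thus differed between fits in number and in direction. Whether the amino acid lists and the chaperone list differ was not tested.

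**Figure D3:**
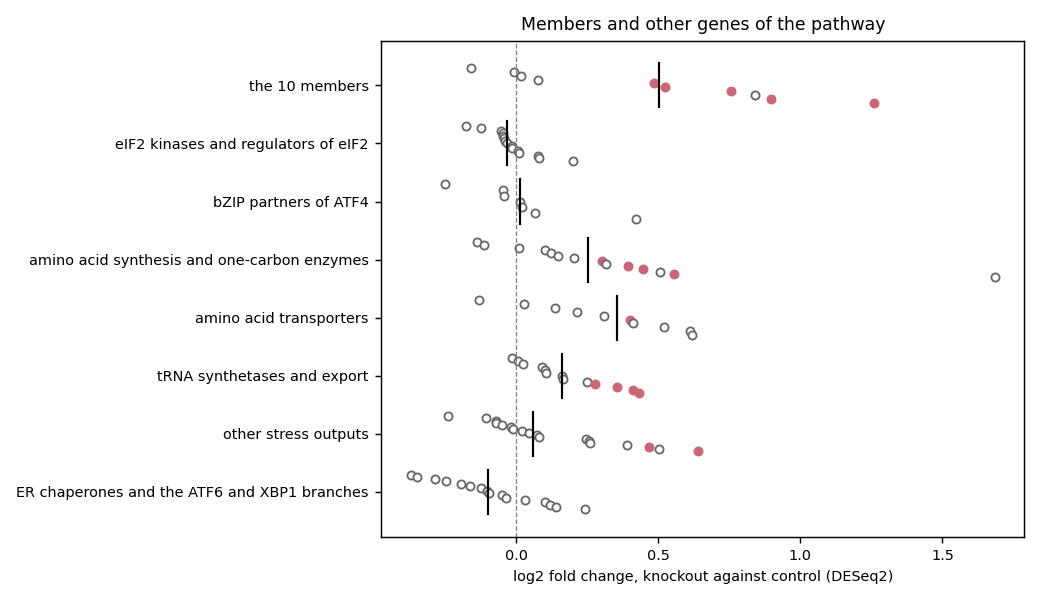
Log2 fold change of knockout against control (DESeq2) for the 10 members and the 93 other genes of the pathway, 1 point per gene, by list; filled points had an adjusted p under 0.05 and the black line is the median of the list. Filled points lie to the right of 0 in the members and in the amino acid, tRNA and other stress lists, and in this fit there are none among the kinases, the bZIP partners and the chaperones.

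The response element searched in the members was also looked for in the promoters of the other pathway genes, of which 73 had a RefSeq window. It was found in 14 of the 73, against 3.95% of all windows. These lists were also written from knowledge of the pathway, so this excess carries no weight either. The tRNA list held 5 of these (Aars, Gars, Iars, Tars and Yars), and the lists of kinases and of chaperones held none. Among the 8 genes that had passed and had a window, 3 held a match, Aars, Yars and Pck2.

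Markers of other cells moved with the genotype. The 13 acinar markers, digestive enzyme genes and their regulators, summed to 0.714%, 1.31% and 0.632% of all counts in the controls and to 1.79%, 2.29% and 1.68% in the knockouts. None was at 0, all 13 had every knockout above every control, and 1 of them, Ptf1a, passed in DESeq2. Within the knockouts the order of the acinar share, replicate 2 above 1 above 3, was also the order of Nupr1 and Phgdh. Fgf21 had it too, but from 8, 24 and 0 counts in replicates 1, 2 and 3. Asns was nearly level, at 10522, 10621 and 10522 normalized counts. In TPM its replicate 2 was the lowest knockout (89.2, 87.2 and 90.7). The other 6 members, Atf4, Ddit3, Trib3, Chac1, Sesn2 and Psat1, were lowest in knockout replicate 2, the library with the highest acinar share. Within the controls replicate 2 had the highest acinar share and replicate 3 the highest Nupr1 and Phgdh. The part of acinar cells in the counts of Nupr1 was not tested. Fgf21, which acinar cells also make, had at most 24 counts in any library, too few to be set against the acinar share.

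The mesenchymal markers, 7 genes, summed to 0.0468% to 0.0627% of counts in the controls and 0.0897% to 0.0978% in the knockouts, and Col1a1, Col1a2, Col3a1, Pdgfra and Dcn rose in DESeq2. Of 7 macrophage markers Cd68, C1qb and C1qc rose, while C1qa, named after its value was seen, was at -0.27 ± 0.13 and did not pass (shares 0.0105% to 0.0121% and 0.0115% to 0.0132%), and of 6 duct markers Krt7 rose, by 0.28, while Cftr was at -0.51 ± 0.46 (0.0279% to 0.0299% and 0.0313% to 0.037%). The 10 hepatocyte markers, of which Apoa1, Apob, Ahsg, Plg and Serpina3k passed, took 0.105% of counts in knockout replicate 1, 0.00378% in knockout replicate 2 and 0.000411% to 0.00059% in the other 4 libraries; Serpina3k was at 0 in every control. The 8 alpha-cell markers took 3.83% to 5.63% of counts in the controls and 2.93% to 3.53% in the knockouts, and Gcg, Irx2, Ttr and Slc38a5 fell. The other alpha-cell markers are named after their values were seen. Irx1 was at -0.37 ± 0.12 with every knockout below every control (adjusted p = 0.0706 in DESeq2). Sstr2 was at 0.60 ± 0.19 with every knockout above every control (adjusted p = 0.0541 in DESeq2). Slc7a2 was at 0.04 ± 0.08 and Gc at 0.00 ± 0.14. Of 9 beta-cell markers Nkx6-1 fell, by 0.23 on the log2 scale, and Mafa was at -0.31 ± 0.11. Among delta-cell and endothelial markers, none passed in DESeq2 or edgeR. The 5 delta-cell markers (Ghsr at -0.39 ± 0.18) took 0.268% to 0.456% of counts over all libraries, and the 7 endothelial markers (Tie1 at 0.18 ± 0.10) 0.0871% to 0.107%. At an unadjusted p under 0.05 in DESeq2 were 1 delta-cell and 0 endothelial genes, and 1159 higher and 895 lower of 17797 tested genes. Of 8 immediate early genes, which respond to handling of tissue, Fosb rose by 0.51 (0.0486% to 0.0797%, lowest in control replicate 3). In edgeR 3 mesenchymal markers passed and none of the acinar, duct, macrophage, hepatocyte, alpha-cell, beta-cell or immediate early genes, so the calls above in those lists rest on DESeq2. The part of these cells in the members' values was not tested.

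**Figure D4:**
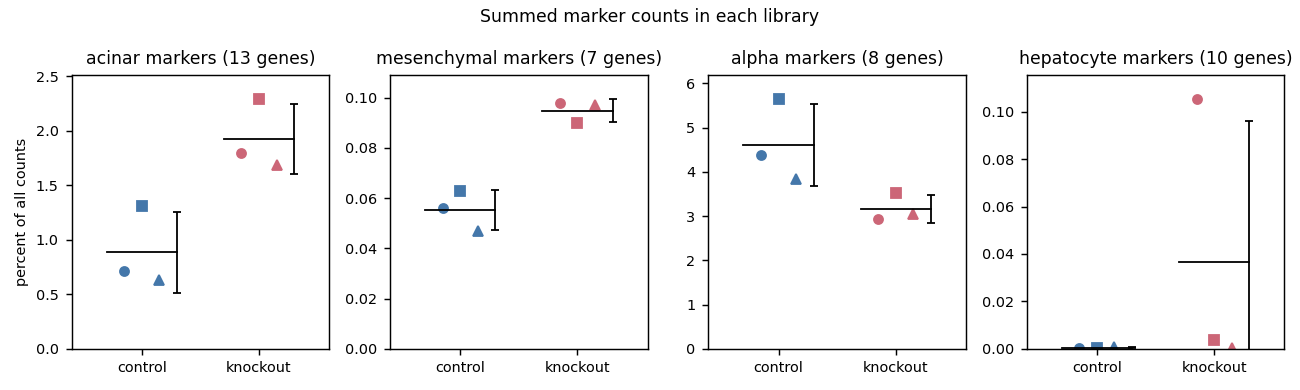
Summed counts of 4 marker lists as a percent of all counts, 1 point per library (circle, square and triangle for replicates 1, 2 and 3), with the group mean as a line and its SD as a bar (n = 3 each). Acinar and mesenchymal shares are higher in all knockout libraries, alpha-cell shares are lower, and the hepatocyte share is high in knockout replicate 1.

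The genes whose profile over the 6 libraries was most like that of Nupr1 were found by the root mean square difference of centred log2(normalized count + 1) values, among 15810 genes with a mean of at least 50 normalized counts. The nearest was Serpinb1a, a protease inhibitor, with a difference of 0.12 on the log2 scale. It was at 167, 205 and 192 normalized counts in the controls and at 414, 468 and 414 in the knockouts. Also among the 5 nearest were Esco2 (0.198), Ifi213 (0.232) and Prodh (0.234). Prodh, the first enzyme of proline breakdown, was at 53.6, 68.2 and 72.1 normalized counts in the controls and at 149, 111 and 113 in the knockouts. Of the other members, Phgdh came nearest at place 37 (0.316), then Psat1 at place 142 (0.385) and Asns at place 234 (0.425). Atf4 stood at place 6469 (0.657). Likeness here rests mainly on the step between the genotypes and describes 6 libraries only.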

How the data were processed

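The values are whole-number counts of reads per gene in 1 deposited table, made by the authors; per the submitters' processing notes, mm10, STAR, featureCounts, FastQC and DESeq2 were used, and the file name records trimming with cutadapt. Versions and the strand setting are not given in the sources used here. All 55536 identifiers and symbols match GENCODE M21 (GRCm38), from which coordinates and exon lengths were taken; 0 columns were unused.

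DESeq2 1.42.0 (R 4.3.3), named in the series' design text, was fitted to all 6 libraries with genotype as the only term, median-of-ratios size factors and the Wald test, on genes with at least 10 counts in total. Genes were called at 0.05 after Benjamini-Hochberg adjustment over all genes. Calls and fold changes were checked on simulated data. Alternatives were edgeR 4.0.16 (quasi-likelihood), TMM or total-count scaling, other filters, a threshold of 0.1, the replicate number as a block and each library left out. A floor of 3 counts is 0.0272 to 0.0296 CPM; floors cover counting error only. Between replicates of a group, chi-square over 15811 genes was 40.0 to 120.0 times its degrees of freedom, so none was a duplicate.

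The members and lists were chosen with earlier results of these data known. TPM and CPM were computed here from the counts. Named genes are all members, the genes past the threshold in each list, the largest change of a list with fewer than 2 such genes (mean of at least 50 normalized counts), 8 fixed pathway genes, the 5 genes most like Nupr1 (1 of them is not reported here), and Klf4, Gcg, Xist and Ddx3y; any other gene is marked where it appears. Promoter sequences are RefSeq's (GRCm38.p6). Gcn1 and Mars1 are in the table as Gcn1l1 and Mars.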

Additional observations from a re-analysis of the deposited data

How the results depend on the processing

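All 120 recomputed log2 fold changes of the members, 12 alternatives for each of 10 genes, moved by less than 1 SD between replicates. That SD comes from the same libraries, so leaving 1 out could hardly move a value further, and this is no measure of stability. The log2 fold change of Fgf21 ran from -1.66 to 0.42 and that of Chac1 from 0.56 to 1.24. No called member changed direction. Calls differed between alternatives: Nupr1 passed in 12 of 12, Phgdh and Asns in 11 (all but edgeR), Psat1 in 9, Trib3 in 6 and Chac1 in 2. Over all genes, 389 passed in DESeq2 (272 higher, 117 lower), 29 in edgeR (24 higher, 5 lower), 608 at an adjusted p of 0.1, and 153 to 952 when 1 library was left out, lowest without knockout replicate 1 and highest without control replicate 3. Of the 93 other pathway genes, 11 passed, 1 in edgeR, and 2 to 24 when 1 library was left out; under the other scalings and filters the count was 11 or 12, not always of the same genes: Ddit4 did not pass with total-count scaling or without the filter. Why the counts moved, the cause, was not tested. With the replicate block, 405 genes, 15 pathway genes (13 higher, 2 lower) and 6 members passed, with Chac1 added and Dnajb9 and Manf as the lower pathway genes; the replicate numbers are not stated to pair the libraries, and same-numbered libraries did not deviate together (correlations of -0.0482, -0.0587 and 0.0105 over 15811 genes), with 1 of 3 controls closest to its own number. Without the 50 bases after the start, 4 members in place of 5 held the response element. Depth limits Fgf21 alone among the members.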

Other observations

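In normalized counts Nupr1, Phgdh and Fgf21 were highest in knockout replicate 2 and lowest in replicate 3. Trib3, Chac1, Ddit3 and Psat1 were highest in replicate 3 and lowest in replicate 2. Asns had the order of Nupr1 in normalized counts, but its replicates 1 and 3 were equal at 10522 after rounding. In TPM Asns was lowest in replicate 2 and highest in replicate 3 (89.2, 87.2 and 90.7 in replicates 1, 2 and 3). Knockout replicate 2 was the lowest knockout for 6 of the 10 members and for 33.3% of all tested genes, and replicate 3 for 4 members and 36.1%. The share of all genes with either full order was not computed. The differences were large for Phgdh (2717 against 1956 normalized counts) and Trib3 (450 against 605), and small for Asns (10621 against 10522) and Psat1 (1345 against 1368). Knockout replicate 1, which carried the most hepatocyte transcripts, was the highest knockout for Atf4 and Sesn2 and for 31.5% of all tested genes. It was the lowest for none of the 10 members and for 30.6% of all tested genes.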
